A study of Equus caballus with 2 samples.

Results

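The WNT ligands and antagonists described here were 10 genes, taken by their symbols from the 21426 genes that both libraries listed. They comprised the secreted ligands *WNT2*, *WNT2B*, *WNT5A* and *WNT5B*, the secreted antagonists *DKK1*, *DKK3*, *SFRP1* and *SFRP2*, and the intracellular regulators *AXIN2* and *NKD2*. Each symbol stood on 1 row of the counts. Their RNA was compared between 2 libraries of cultured equine endometrial fibroblasts, a control and a TGF-β1 library. Passage 3 cells of 4 mares with healthy or mildly fibrotic endometria in the luteal phase were grown on collagen-coated hydrogels, first with 10% and then with 4% serum. From 48 to 72 h both groups were kept in serum-free medium with 0.1% BSA, the control without supplement and the other group for 24 h with human recombinant TGF-β1 at 10 ng/ml. The cells of the 4 mares were pooled before loading, and each group gave 1 droplet library in which every captured transcript carried a unique molecular identifier (UMI). MFGE8-treated cells were not analysed here.

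WNT ligands are secreted, lipid-modified glycoproteins that bind Frizzled receptors. With the coreceptors LRP5 and LRP6 they stabilise β-catenin, which acts with TCF/LEF factors on target genes, while ligands such as WNT5A also signal without β-catenin through ROR and RYK receptors to cell polarity and calcium. In the endometrium, stromal and epithelial WNT signals are known for their part in gland formation and in the cyclic changes of the uterine lining, and secreted antagonists limit how far a ligand acts.

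Barcodes were kept from 20000 UMIs and 3500 detected genes upwards if mitochondrial UMIs stayed below 4%, which left 3865 control and 4513 TGF-β1 cells. They held 210497250 and 219731144 UMIs, and the median cell had 50313 in the control and 43142 in the TGF-β1 library. The libraries shared 6 barcode sequences, of which 2 belonged to kept cells of both libraries. Values are UMIs summed over the kept cells of a library, per 1000000 UMIs (CPM), and log2 ratios set the TGF-β1 library over the control. With 1 library per group there was no replicate and no test, so library and treatment cannot be told apart, and the 95% intervals, exact binomial for shares and ratios and exact Poisson for sums, cover counting error only.

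Markers of the labelled cell type were checked first. All 10 fibroblast markers were found, with a summed level of 21782 CPM in control and 22006 CPM in TGF-β1 cells, *COL1A1* being the most abundant at 5608 and 6376 CPM. *PDGFRA* and *THY1* were more than 2-fold lower and *FAP* more than 2-fold higher in the TGF-β1 library. Of the 12 epithelial markers 10 were found, and their sum was 134 CPM in control and 12.4 CPM in TGF-β1 cells, with *KRT8* at 114 and 4.48 CPM and *KRT7* at 19.3 and 7.04 CPM, while *EPCAM* had 1 and 3 UMIs and *FOXA2* none. *CLDN4* went the other way, more than 2-fold higher with 19 and 49 UMIs, and *CLDN3* had 0 and 4 UMIs. The 7 endothelial markers summed to 1.90 and 1.62 CPM, led by *CLDN5* with 0.556 and 0.969 CPM. Among them *VWF* with 99 and 45 UMIs and *EMCN* with 88 and 8 UMIs were more than 2-fold lower, and *CDH5* had 3 and 2 UMIs. The 6 immune markers found summed to 42.7 and 43.2 CPM, nearly all of it *CD68* with 42.6 and 43.1 CPM, and *PTPRC* had 1 and 0 UMIs. The 8 smooth muscle and pericyte markers summed to 4549 and 5856 CPM, with *ACTA2* the most abundant at 3608 and 4745 CPM, *CNN1* more than 2-fold higher (193 and 453 CPM) and *MCAM* more than 2-fold lower (5.78 and 1.75 CPM). The 9 cycling markers found summed to 53.6 and 30.4 CPM, led by *TOP2A* with 13.2 and 8.25 CPM. Of these *CDC20*, *AURKB* and *CDK1* were more than 2-fold lower. Whether keratin, contractile or cycling cells had a part in the WNT values was not tested.

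Of the 10 genes, 9 had a mean of at least 1 CPM over both libraries, and *WNT2B* did not. A minimum on the mean can be passed through the higher library alone, as *DKK1* did with 0.504 CPM in control and 1.61 CPM in TGF-β1 cells. Of these 9, *WNT5B*, *DKK1* and *NKD2* were more than 2-fold higher in the TGF-β1 library, against 3.45% of the 12116 genes whose mean reached 1 CPM. *SFRP2* was more than 2-fold lower, against 3.46% of these genes. The other 5, *WNT2*, *WNT5A*, *DKK3*, *SFRP1* and *AXIN2*, stayed within 2-fold.

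**Figure D1:**
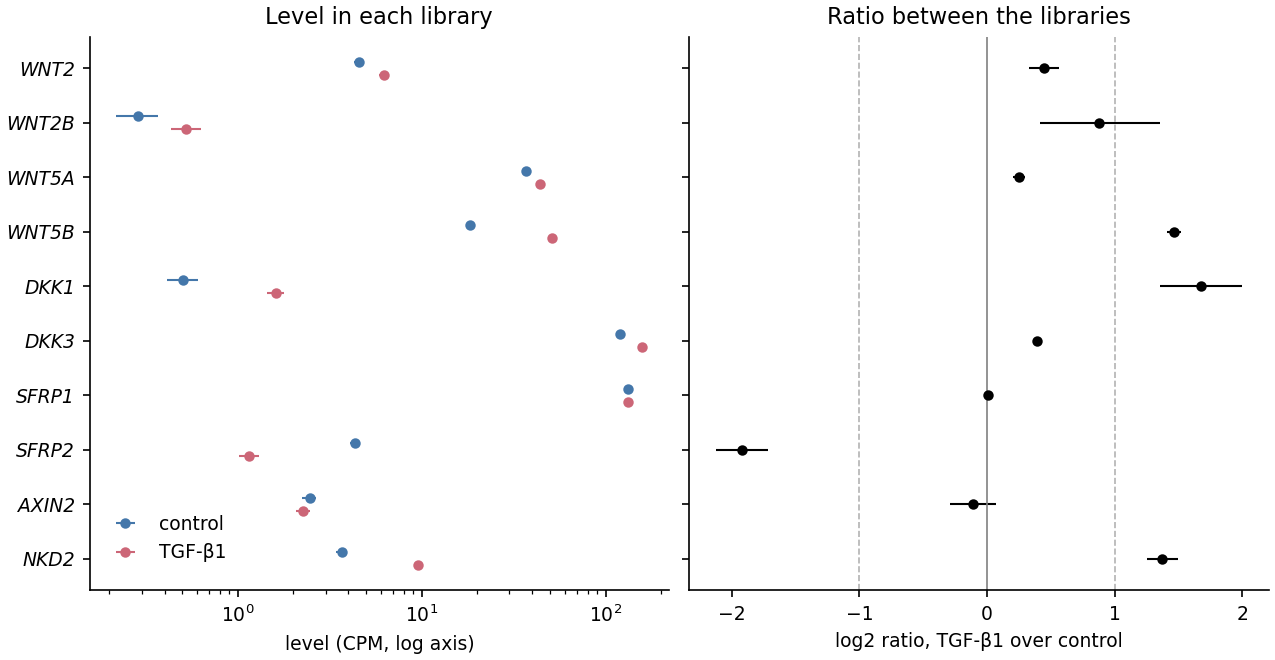
Left, level of each gene in CPM on a log axis in the control (blue) and TGF-β1 (red) library with exact Poisson 95% intervals. Right, log2 ratio between the libraries with exact binomial 95% intervals and dashed lines at 2-fold; *DKK1* stands farthest to the right at 1.67 and *SFRP2* farthest to the left at −1.92.

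The 4 ligands together gave 60.1 CPM in control and 101 CPM in TGF-β1 cells, most of it from *WNT5A* and *WNT5B*. Both genes encode ligands known mainly for signalling without β-catenin. *WNT5B* (ENSECAG00000016516) had 3879 UMIs in control and 11179 UMIs in TGF-β1 cells. This was 18.4 CPM (95% interval 17.9 to 19.0) against 50.9 CPM (49.9 to 51.8), a log2 ratio of 1.47 (1.41 to 1.52) or 2.76-fold. The intervals of the 2 libraries lay far apart. *WNT5A* (ENSECAG00000008830) had 36.8 CPM (36.0 to 37.6) in control and 43.8 CPM (42.9 to 44.7) in TGF-β1 cells, a log2 ratio of 0.25 (0.21 to 0.29). The close relatives thus had ratios of different size. Of the UMIs of this pair, *WNT5B* held 33.4% (32.5% to 34.2%) in control and 53.8% (53.1% to 54.4%) in TGF-β1 cells. These are counts from the 3′ end of transcripts, which are not scaled by length and depend on how well each 3′ end is annotated, so a share or an order between genes is one of UMIs and not of molecules in the cell.

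*WNT2* and *WNT2B* encode a second pair of related ligands that act through β-catenin, and both were much sparser. *WNT2* (ENSECAG00000024641) had 960 UMIs or 4.56 CPM (4.28 to 4.86) in control and 1365 UMIs or 6.21 CPM (5.89 to 6.55) in TGF-β1 cells, a log2 ratio of 0.45 (0.33 to 0.57). *WNT2B* (ENSECAG00000004705) had 60 UMIs or 0.285 CPM (0.218 to 0.367) in control and 115 UMIs or 0.523 CPM (0.432 to 0.628) in TGF-β1 cells, with a log2 ratio of 0.88 (0.41 to 1.35). The 4 ligands were therefore higher in the TGF-β1 library with intervals above 0, as at this depth were 39.5% of the 12116 genes, and *WNT5B* by more than 2-fold. For *WNT2B* the interval reached past 2-fold and the ratio was 1.31 with cells thinned, so the size of its difference was poorly known.

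The most abundant antagonists were *SFRP1*, a secreted protein with a Frizzled-like domain that binds WNT ligands, and *DKK3*, a divergent member of the Dickkopf family. *SFRP1* (ENSECAG00000021358) had 27803 UMIs or 132 CPM (131 to 134) in control and 29111 UMIs or 132 CPM (131 to 134) in TGF-β1 cells. Its log2 ratio of 0.00 (−0.02 to 0.03) left no difference detectable at this depth, and its sign was below 0 in 6 of 10 processing alternatives. *DKK3* (ENSECAG00000022804) had 120 CPM (119 to 122) in control and 158 CPM (156 to 159) in TGF-β1 cells, a log2 ratio of 0.39 (0.37 to 0.41). *SFRP1* led the 10 genes in control UMIs and *DKK3* in TGF-β1 UMIs.

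*SFRP2*, the close relative of *SFRP1*, and *DKK1*, a secreted antagonist that binds LRP5 and LRP6, lay on opposite sides of 0. *SFRP2* (ENSECAG00000017027) had 914 UMIs or 4.34 CPM (4.07 to 4.63) in control and 252 UMIs or 1.15 CPM (1.01 to 1.30) in TGF-β1 cells. Its log2 ratio was −1.92 (−2.13 to −1.72), and the control level was 3.79-fold the level in the TGF-β1 library. *DKK1* (ENSECAG00000017837) had 106 UMIs or 0.504 CPM (0.412 to 0.609) in control and 353 UMIs or 1.61 CPM (1.44 to 1.78) in TGF-β1 cells, a log2 ratio of 1.67 (1.36 to 2.00) or 3.19-fold. Both had few UMIs beside the relative named above. *SFRP2* made up 3.18% (2.98% to 3.39%) of the *SFRP1* and *SFRP2* UMIs in control and 0.858% (0.756% to 0.970%) in TGF-β1 cells. *DKK1* made up 0.417% (0.342% to 0.504%) of the *DKK1* and *DKK3* UMIs in control and 1.01% (0.906% to 1.12%) in TGF-β1 cells. Summed over the 4 antagonists the level was 257 CPM in control and 293 CPM in TGF-β1 cells, a log2 ratio of 0.19 (0.17 to 0.20).

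*AXIN2* and *NKD2* are intracellular and dampen the pathway inside the cell. *AXIN2*, a scaffold of the complex that degrades β-catenin and a commonly used target gene of the pathway, did not differ detectably. *AXIN2* (ENSECAG00000017986) had 517 UMIs or 2.46 CPM (2.25 to 2.68) in control and 499 UMIs or 2.27 CPM (2.08 to 2.48) in TGF-β1 cells, with a log2 ratio of −0.11 (−0.29 to 0.07). *NKD2*, which encodes a protein that binds dishevelled, had 772 UMIs or 3.67 CPM (3.41 to 3.94) in control and 2089 UMIs or 9.51 CPM (9.10 to 9.92) in TGF-β1 cells. The log2 ratio of *NKD2* (ENSECAG00000016907) was 1.37, or 2.59-fold, with a lower bound of 1.25. The 2 genes, both on the list of β-catenin target genes described below, thus had unlike values in the same pair of libraries. Activity of β-catenin was not tested.

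In order of UMIs, the control cells had *SFRP1*, *DKK3*, *WNT5A*, *WNT5B*, *WNT2*, *SFRP2*, *NKD2*, *AXIN2*, *DKK1* and *WNT2B*. Of these neighbours, only the intervals of *WNT2* and *SFRP2* overlapped. In the TGF-β1 cells the order was *DKK3*, *SFRP1*, *WNT5B*, *WNT5A*, *NKD2*, *WNT2*, *AXIN2*, *DKK1*, *SFRP2* and *WNT2B*, and no neighbours had overlapping intervals. *SFRP2* took rank 6 in control and rank 9 in TGF-β1 cells, and *NKD2* ranks 7 and 5.

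Because the control cells were deeper, UMIs were drawn at random down to 20000 in every kept cell before cells with a gene were counted. In these thinned cells *WNT5B* was found in 25.2% (23.9% to 26.6%) of the control library and 49.7% (48.2% to 51.1%) of the TGF-β1 library, and without thinning in 46.8% and 69.0%. *WNT5A* was found in 44.9% (43.3% to 46.5%) and 49.7% (48.3% to 51.2%), and without thinning in 70.9% and 71.9%. The ligands of this pair were therefore met in nearly equal shares of TGF-β1 cells. For *WNT5B* the number of UMIs in cells that had any also went from 1.40 to 1.98 per thinned cell, whereas it was 1.68 and 1.76 for *WNT5A*. *WNT2* was found in 7.79% (6.96% to 8.68%) and 10.3% (9.39% to 11.2%) of thinned cells, and *WNT2B* in 0.466% (0.276% to 0.735%) and 1.13% (0.843% to 1.48%). Without thinning the shares of *WNT2* were 18.3% and 21.2%, and *WNT2B* was found in 58 control and 110 TGF-β1 cells. Thinned cells without any of the 4 ligands made up 38.0% of the control and 23.6% of the TGF-β1 library.

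Among the antagonists, *DKK3* was close to ubiquitous, with 86.9% (85.8% to 87.9%) of thinned control and 93.6% (92.9% to 94.3%) of thinned TGF-β1 cells, and 97.6% and 99.0% without thinning. *SFRP1* was found in 69.2% (67.7% to 70.6%) and 74.7% (73.4% to 76.0%) of thinned cells and in 82.9% and 86.6% of unthinned cells. Its UMIs were spread more unevenly than those of *DKK3*. The variance over the mean of thinned counts, which is 1 for counts drawn at an equal rate in every cell, was 5.70 in control and 3.46 in TGF-β1 cells for *SFRP1* and 1.45 and 1.30 for *DKK3*. A single control cell held 70 of the *SFRP1* UMIs left after thinning, and cells with any *SFRP1* held 3.99 in control and 3.52 in TGF-β1 cells on average. Because its share and its UMIs per cell went opposite ways, no order was read from the share.

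*SFRP2* was found in 5.54% (4.84% to 6.31%) of thinned control and 1.91% (1.53% to 2.35%) of thinned TGF-β1 cells, and in 11.3% and 4.28% without thinning. *DKK1* was found in 0.621% (0.398% to 0.923%) and 2.61% (2.17% to 3.12%) of thinned cells and in 1.73% and 4.68% of unthinned cells. Cells with *DKK1* held 1.33 thinned UMIs in control and 1.30 in TGF-β1 cells. The variance over the mean of its thinned counts was 2.43 and 1.93. The highest thinned count in a cell was 7 in control and 8 in TGF-β1 cells, so its few UMIs were spread unevenly. *NKD2* went from 5.56% (4.86% to 6.33%) to 12.6% (11.7% to 13.6%) of thinned cells, with 11.1% and 21.5% unthinned. *AXIN2* was found in 4.66% (4.01% to 5.37%) of thinned control cells and 4.65% (4.06% to 5.31%) of thinned TGF-β1 cells, with a second random draw in 4.73% and 3.94%, and in 11.5% and 10.1% of the unthinned cells of unequal depth. Free RNA in a droplet can give a UMI to a cell that does not express the gene, and since both libraries held fibroblasts, no share in a cell type that lacks these genes was at hand.

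**Figure D2:**
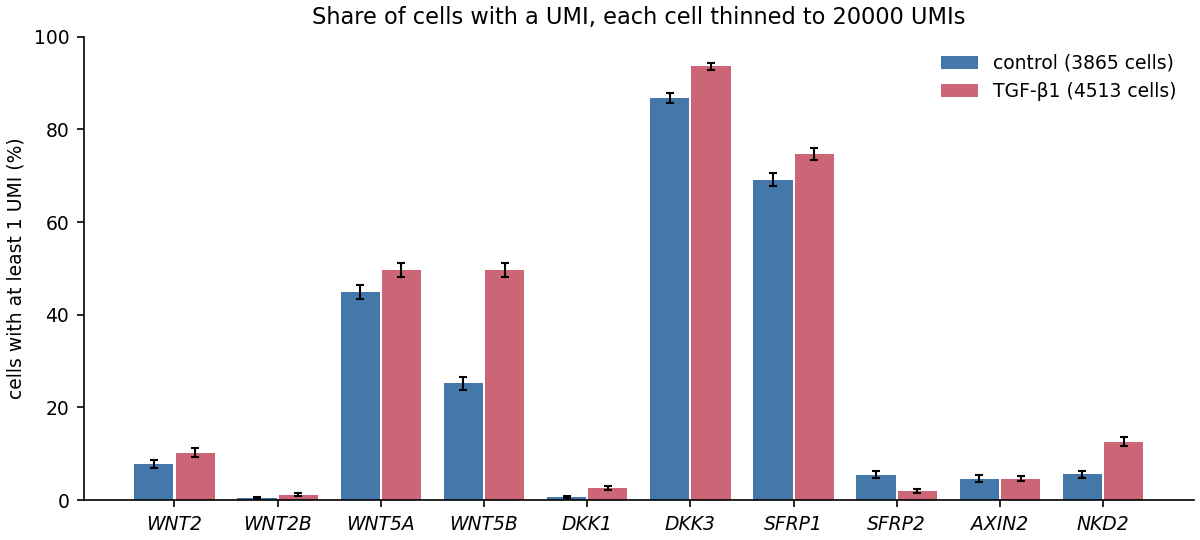
Bars give the percent of kept cells with at least 1 UMI of each gene after thinning to 20000 UMIs per cell, in control (blue) and TGF-β1 (red) cells, with exact binomial 95% intervals. *WNT5B* goes from 25.2% to 49.7% and *NKD2* from 5.56% to 12.6%, *SFRP2* from 5.54% to 1.91%, and the intervals of *AXIN2* overlap.

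A thinned control cell had UMIs of a mean of 2.51 of the 10 genes and a thinned TGF-β1 cell of 3.01. Cells without any of them made up 1.84% of the control and 0.487% of the TGF-β1 library, and cells with 5 or more made up 2.48% and 8.02%. Co-detection was set beside the product of the single shares for each of the 45 pairs. In control cells 32 pairs had an expected number of at least 10 cells, and the median of observed over expected was 1.01. In TGF-β1 cells 36 pairs did, with a median of 1.02. The genes were therefore found together about as often as their shares alone gave, and the interval of the observed number held the expected one in 30 of the 32 control pairs and 32 of the 36 TGF-β1 pairs.

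The pairs above expectation in both libraries involved *WNT5A*. *WNT5A* and *NKD2* were found together in 123 control cells where 96.5 were expected, a ratio of 1.27 (1.06 to 1.52), and in 331 TGF-β1 cells where 283 were expected, a ratio of 1.17 (1.05 to 1.30). With the expected number summed over rebuilt clusters the ratios were 1.29 and 1.18. *WNT5A* and *SFRP1* were found together in 1270 control cells against 1200 expected, 1.06 (1.01 to 1.11), and in 1770 TGF-β1 cells against 1677 expected, 1.06 (1.02 to 1.09). Within clusters both of its ratios were 1.03, with intervals (0.98 to 1.07 and 0.99 to 1.07) that held 1. *WNT2* with *WNT5A* (268 cells, 230 expected) and *WNT2* with *DKK1* (20 cells, 12.1 expected) were above expectation in TGF-β1 cells, the latter with an interval of 1.01 to 2.55 that rests on few cells. *WNT5A* and *WNT5B*, in contrast, shared 435 control cells (438 expected) and 1134 TGF-β1 cells (1114 expected). Of the pairs with at least 10 expected cells none had an interval below expectation in either library.

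The kept cells were clustered without any gene of the WNT lists among the variable genes, which gave 7 rebuilt clusters, numbered 0 to 6, with 132 to 1094 control and 119 to 1198 TGF-β1 cells. Cluster 3 was led by *KRT7* and *KRT8*, cluster 4 by *CFD*, and in cluster 6 all 9 cycling markers found were more than 2-fold above the other cells. In 7 of 7 clusters *WNT5B* had the higher level in TGF-β1 cells, with log2 ratios from 1.23 in cluster 1 to 2.28 in cluster 5. *NKD2* and *DKK1* were higher in 7 of 7 as well, from 0.70 in cluster 3 to 2.28 in cluster 6 and from 0.65 in cluster 2 to 3.10 in cluster 5. The *DKK1* value in cluster 5 rests on 4 and 19 UMIs. *SFRP2* was lower in 7 of 7 clusters, from −2.54 in cluster 2 to −0.60 in cluster 5, where the interval (−1.74 to 0.44) held 0. *DKK3* was higher in all 7 clusters, within a narrow range of 0.27 to 0.61.

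*WNT5A* and *WNT2* were higher in 6 of 7 clusters, and cluster 3 was the exception for both. There *WNT5A* had 26.7 CPM in control and 24.3 CPM in TGF-β1 cells, a log2 ratio of −0.14 whose interval lay just below 0, and *WNT2* had 5.93 and 5.03 CPM, −0.24 (−0.54 to 0.06). *SFRP1* differed more between clusters than between libraries. It ranged from 42.4 CPM in cluster 3 to 256 CPM in cluster 5 of the control library, 6.03-fold, and from 46.2 to 240 CPM in the same clusters of the TGF-β1 library, 5.21-fold. By contrast *DKK3* ranged only 1.47-fold and 1.40-fold over the clusters. The *SFRP1* ratio was −0.24 (−0.28 to −0.19) in cluster 2 and 0.58 (0.45 to 0.71) in cluster 6, so that opposite values stood behind its library-wide ratio of 0.00. *AXIN2* was higher in 3 clusters and lower in 4, with an interval that did not hold 0 in cluster 2 only, at −0.57 (−0.98 to −0.16). *WNT2B* was counted often enough for a ratio in 4 clusters, over 3 UMIs in each library, and was higher in these 4. Clusters are not replicates, and since cells were not assigned to mares here, whether the rebuilt clusters differed by mare was not tested. The study separated the mares from reads and reports a cluster of its own in which nearly all cells came from the same mare.

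**Figure D3:**
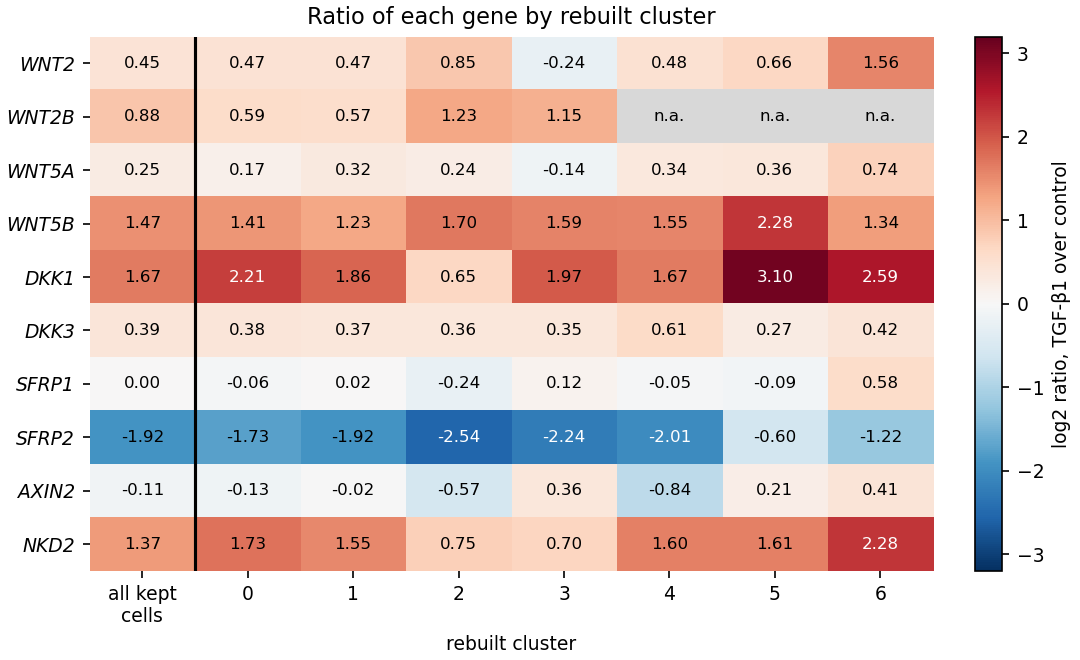
Each field gives a gene's log2 ratio (TGF-β1 to control) in all kept cells (first column) and in rebuilt clusters 0 to 6, coloured from blue (lower) to red (higher); n.a. marks 3 or fewer UMIs in a library. *WNT5B*, *DKK1*, *DKK3* and *NKD2* are above 0 and *SFRP2* below 0 in all 7 clusters, while *SFRP1* and *AXIN2* take both signs.

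Within each library the 10 genes were also compared between thinned cells with and without a UMI of other genes that set cells apart. *NKD2* followed *CFD*, the gene of complement factor D. In control cells *NKD2* had 5.75 CPM in the 1721 cells with *CFD* and 1.94 CPM in the 2144 cells without, a log2 ratio of 1.57 (1.19 to 1.96). In TGF-β1 cells it had 20.2 CPM in the 693 cells with *CFD* and 7.64 CPM in the 3820 cells without, 1.40 (1.19 to 1.61). Without thinning these ratios were 1.14 and 1.13, below the intervals above. *CFD* itself went from 220 to 35.0 CPM between the libraries, so that *NKD2* was higher in the TGF-β1 library while the gene it accompanied was lower. *WNT5A* was also higher in cells with *CFD*, by 0.56 (0.45 to 0.66) in control and 0.62 (0.51 to 0.73) in TGF-β1 cells. So was *SFRP1*, by 0.47 (0.42 to 0.53) and 0.24 (0.18 to 0.31). *AXIN2* was higher in control cells only (0.48, 0.06 to 0.90). *DKK1* (1.20, 0.66 to 1.71), *SFRP2* (0.90, 0.18 to 1.57) and *DKK3* (0.11, 0.05 to 0.17) were higher in TGF-β1 cells only. The other intervals held 0, and the share over all genes was not counted for *CFD*.

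Control cells with *KRT8* had lower levels of 6 of the 10 genes with intervals below 0, namely *SFRP1*, *SFRP2*, *DKK3*, *WNT5A*, *NKD2* and *AXIN2*, and the intervals of the other 4 held 0. Of 12106 genes compared in the same way, 20.4% had intervals below 0 and 7.67% above. *SFRP1* had 101 CPM in the 986 control cells with *KRT8* and 151 CPM in the 2879 without, a log2 ratio of −0.58 (−0.65 to −0.51), and −0.29 (−0.45 to −0.13) between the 159 TGF-β1 cells with it and the others. *SFRP2* in control cells had 3.04 CPM with and 4.81 CPM without *KRT8*, and *DKK3* 102 and 125 CPM. In TGF-β1 cells the *DKK3* interval (−0.19 to 0.08) held 0 and *SFRP2* had 1 UMI in cells with *KRT8*, while *WNT5A* (−0.42, −0.71 to −0.14) and *WNT2* (−1.25, −2.47 to −0.26) were lower and the intervals of *NKD2* (−0.66 to 0.46) and *AXIN2* (−2.28 to 0.61) held 0. *WNT5A* in control cells was at −0.28 (−0.41 to −0.15), *NKD2* at −0.70 (−1.17 to −0.25) and *AXIN2* at −0.55 (−1.11 to −0.02). *WNT5B* did not differ detectably by *KRT8*, with log2 ratios of 0.03 (−0.15 to 0.21) in control and 0.00 (−0.24 to 0.23) in TGF-β1 cells.

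*AREG* and *IGFBP3* were each found in more TGF-β1 than control cells. The 1031 TGF-β1 cells with *AREG* had 5.72 CPM of *NKD2* against 10.7 CPM in those without, a log2 ratio of −0.90 (−1.20 to −0.62), and 53.0 against 48.0 CPM of *WNT5B*, 0.14 (0.04 to 0.24). *NKD2* was 0.39 (−0.44 to 1.12) in the 170 control cells with *AREG*, an interval that held 0, and *WNT5B* was 0.38 (0.03 to 0.71). Cells with *AREG* had less *SFRP1* in both libraries, −0.80 (−0.98 to −0.63) in control and −0.25 (−0.31 to −0.18) in TGF-β1 cells, and less *WNT5A*, −0.45 (−0.76 to −0.15) and −0.35 (−0.47 to −0.23).

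The 1788 TGF-β1 cells with *IGFBP3* had more *NKD2* than the 2725 without, 0.35 (0.15 to 0.54). The 215 control cells with *IGFBP3* had less *NKD2*, 1.86 against 3.74 CPM (−1.01, −2.23 to −0.01), but the lower value rests on 8 UMIs. *WNT5B* did not differ detectably in these TGF-β1 cells, with 48.8 and 49.4 CPM. In control cells with *VCAM1* (180 cells) *WNT5B* had 11.4 CPM against 17.9 CPM, −0.66 (−1.14 to −0.21), and *NKD2* had 6.94 against 3.47 CPM, 1.00 (0.34 to 1.59). Both depended on depth, as the ratios without thinning were −0.20 and 0.17. The 3749 control cells with *ACTA2* had 4.17 CPM of *SFRP2* against 10.3 CPM in the 116 without (−1.31, −1.91 to −0.65), with *SFRP1* at −0.45 (−0.59 to −0.30), *WNT5A* at −0.42 (−0.69 to −0.14) and *WNT5B* at 0.79 (0.21 to 1.44). Fewer than 50 TGF-β1 cells had *VCAM1*, fewer than 50 cells lacked *ACTA2* in the TGF-β1 library or *TAGLN* in either library, and *MKI67* was not among the symbols. Cells with a UMI of a gene share depth and cluster as well as the gene, and these comparisons are descriptions.

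Over single cells, the genes most like each member were ranked by the lower of the Pearson correlations of log counts in 3865 control and 4513 TGF-β1 thinned cells, against the genes that had a symbol and reached a mean of 10 CPM. Only *SFRP1* had genes at 0.2 or above in both libraries. It had 5 of them, and the highest were *DCN* (0.31 and 0.29), *MMP2* (0.26 and 0.25) and *COL3A1* (0.23 and 0.26), which encode decorin, a matrix metalloproteinase and a collagen chain. For the other 9 genes none reached that value in both libraries. *NKD2* had 0.17 and 0.21 with *CFD*, and 0.14 and 0.25 with *STRA6*, above 0.2 in TGF-β1 cells only. In counts as sparse as those of *WNT2B* or *DKK1* a weak correlation is no finding.

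The rest of the pathway was read from further lists of 141 genes, of which 137 were found by symbol and 97 had a mean of at least 1 CPM. Of these 97, 3 were more than 2-fold higher and 7 more than 2-fold lower in the TGF-β1 library, or 3.09% and 7.22%, against 3.45% and 3.46% of all genes with that mean. Their median log2 ratio was 0.01. All 10 belonged to ligands, secreted or membrane antagonists, R-spondins and β-catenin target genes, and none to the receptors, the secretion machinery, the β-catenin destruction complex, the TCF/LEF factors or the polarity and calcium branch.

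Of the other 15 ligands 5 had a mean of at least 1 CPM. Of these 5, 1 was more than 2-fold higher and 2 lower, against 3.45% and 3.46% of all genes with that mean. *WNT6* had 2643 UMIs or 12.6 CPM in control and 201 UMIs or 0.915 CPM in TGF-β1 cells, a log2 ratio of −3.78 (−3.99 to −3.57). Its UMIs were met in 17.1% of the control and 1.84% of the TGF-β1 cells after thinning. *WNT11* had 3.06 and 1.15 CPM, −1.42 (−1.63 to −1.21). *WNT9A* went the other way with 1.67 and 4.90 CPM, 1.55 (1.38 to 1.73). Summed over all 19 ligands the level was 90.5 CPM in control and 117 CPM in TGF-β1 cells, a log2 ratio of 0.37 (0.34 to 0.40), against 0.76 (0.72 to 0.79) for the 4 ligands above.

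Of the receptors and coreceptors 0 of 13 passed 2-fold in either direction, where the shares of all genes were 3.45% and 3.46%, and their median log2 ratio was 0.22. The largest values were those of *ROR1*, a receptor for WNT5A, with 17.5 CPM in control and 10.6 CPM in TGF-β1 cells (−0.72, −0.80 to −0.65), the pseudokinase *PTK7* with 101 and 154 CPM (0.61, 0.58 to 0.63) and *FZD1* with 40.6 and 28.2 CPM (−0.53, −0.57 to −0.48). Of the 5 secretion genes none passed 2-fold, and their median was 0.00. *PORCN*, which attaches the lipid to WNT ligands, had 2.35 and 1.47 CPM (−0.67, −0.88 to −0.47), *TMED2* had 277 and 368 CPM (0.41, 0.40 to 0.43) and *VPS35* had 92.2 and 87.9 CPM (−0.07, −0.10 to −0.04).

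Of the other secreted or membrane antagonists 7 of 18 found had a mean of at least 1 CPM. Of these 7, 3 were more than 2-fold lower and 0 higher, against 3.46% and 3.45% of all genes with that mean. The median log2 ratio of the 7 was −0.35. That median depended on the minimum, at −1.10 from 10 CPM upwards and 0.11 with none. *IGFBP4*, an insulin-like growth factor binding protein that also inhibits WNT receptors, was the most abundant, with 302 CPM in control and 88.3 CPM in TGF-β1 cells (−1.77, −1.80 to −1.75). *FRZB*, a relative of the SFRP genes, had 35.8 and 14.7 CPM (−1.29, −1.35 to −1.23). *APCDD1* had 14.6 and 6.78 CPM (−1.10, −1.20 to −1.02). All 3 stood on the side of *SFRP2* and not of *DKK1*. Among the other antagonists under 1 CPM, *SFRP4*, *SFRP5*, *DRAXIN* and *NOTUM* were more than 2-fold higher. *CER1* was lower with 5 and 0 UMIs. R-spondins raise WNT signalling by sparing Frizzled receptors from turnover, and of 3 genes of that list *RSPO3* had 15.8 and 6.22 CPM (−1.35, −1.44 to −1.26), while *ZNRF3* had 6.12 and 7.73 CPM (0.34, 0.23 to 0.44) and *LGR4* 44.1 and 51.8 CPM (0.23, 0.19 to 0.27).

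Of 21 genes listed as β-catenin targets 15 had a mean of at least 1 CPM. Of these 15, 4 were more than 2-fold higher and 2 lower, against 3.45% and 3.46% of all genes with that mean. The median log2 ratio of the 15 was 0.01. Without genes of the set of 10 it was 2 higher and 2 lower of 12, with a median of −0.03. *DKK1* and *NKD2* were among the 4 higher genes. The others were *PRDM1*, a transcriptional repressor, with 5.97 CPM in control and 19.6 CPM in TGF-β1 cells (1.72, 1.62 to 1.81) and *CCND1*, the gene of cyclin D1, with 78.9 and 177 CPM (1.16, 1.14 to 1.19). *TNFRSF19* had 2.16 and 0.191 CPM (−3.50, −3.99 to −3.04), and *APCDD1* was the other lower gene. The target genes therefore lay on both sides of 0.

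In the destruction complex and dishevelled list 0 of 17 genes passed 2-fold, where the shares of all genes were 3.45% and 3.46%. The median of that list was 0.06. Its largest values were those of *APC2* with 1.27 and 2.09 CPM (0.72, 0.50 to 0.94), the kinase *GSK3B* with 128 and 192 CPM (0.58, 0.56 to 0.60) and *DVL2* with 5.62 and 3.91 CPM (−0.52, −0.65 to −0.40). In the TCF/LEF list 0 of 15 did, with a median of 0.00. Its largest values were those of *TCF7* with 1.12 and 1.76 CPM (0.65, 0.41 to 0.89), *TCF7L1* with 17.4 and 11.8 CPM (−0.57, −0.64 to −0.49) and *BCL9* with 17.4 and 24.5 CPM (0.49, 0.43 to 0.55). In the list of planar cell polarity and calcium genes 0 of 24 did, with a median of −0.04. There the polarity gene *PRICKLE1* had 85.6 and 153 CPM (0.83, 0.81 to 0.86), *FUZ* had 6.95 and 3.96 CPM (−0.81, −0.93 to −0.69) and *CAMK2D* had 173 and 118 CPM (−0.55, −0.57 to −0.53).

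**Figure D4:**
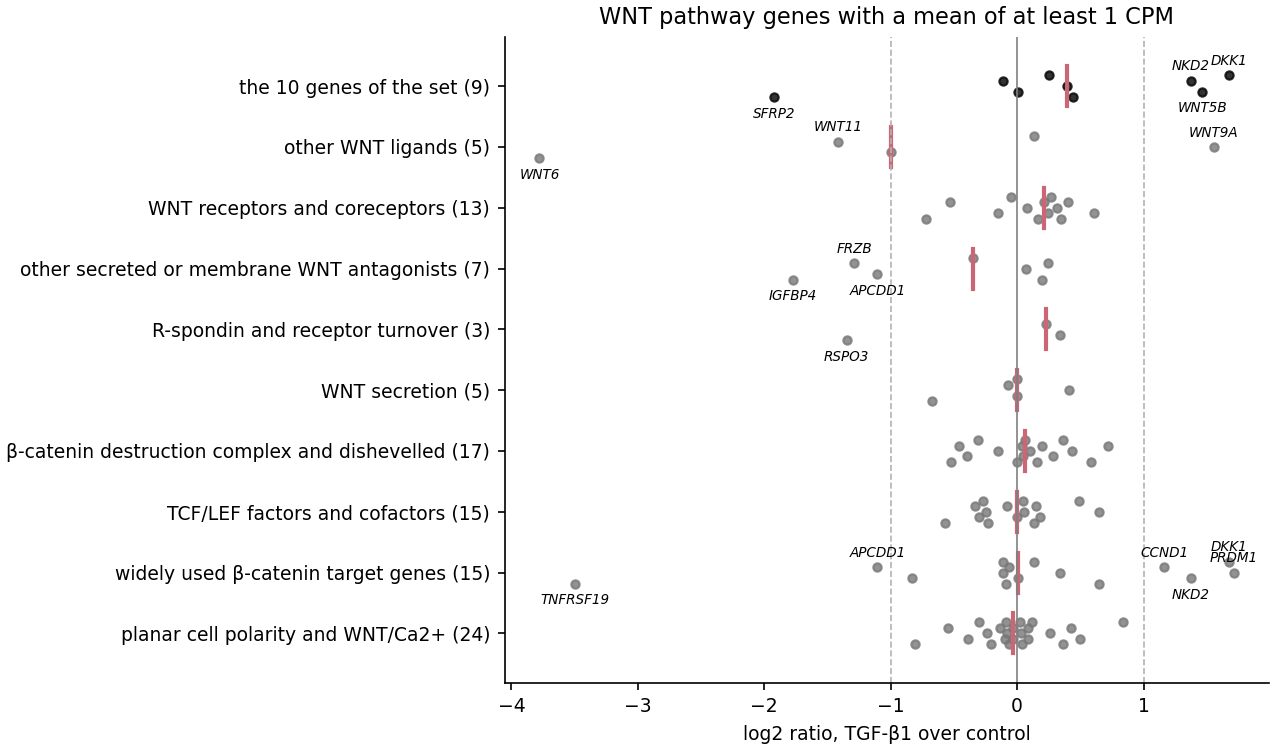
Log2 ratio (TGF-β1 to control) of each gene with a mean of at least 1 CPM, for the 10 genes (black) and the further lists (grey); numbers in parentheses count the genes shown, red bars mark medians, dashed lines mark 2-fold and genes past it are named. The points past 2-fold lie among ligands, antagonists, R-spondins and target genes, from *WNT6* at −3.78 to *PRDM1* at 1.72.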

How the data were processed

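Each library was sequenced with the 10x Chromium 3′ chemistry. The deposited values are counts of UMIs for every gene in every barcode. The authors aligned to EquCab3.0 with Ensembl genes in Cell Ranger (7.1.0 in the processing notes, 8.0.1 in the file headers). These counts are not normalised, and the study normalised them afterwards in Seurat. Cells were kept by the filters of the study. Its doublet removal rests on reads and was not repeated, and removal of the cells with most UMIs stood in for it as an alternative. UMIs were summed per library and scaled to CPM in Python 3.11.15 (pandas 2.3.3, numpy 2.4.6), intervals came from scipy 1.17.1 and figures from matplotlib 3.10.9. No ratio was formed where both libraries, or 1 library of a cluster, had 3 or fewer UMIs. Clusters were rebuilt in Seurat 5.3.0 (R 4.3.3) at resolution 0.5 after log normalisation and canonical correlation integration on 2000 variable genes and 30 dimensions. Named were the 10 genes, the 3 genes per list with the largest absolute ratio and every list gene past 2-fold, each with a mean of at least 1 CPM. *SOST*, *TIKI1*, *TIKI2* and *CTNNBIP1*, and the markers *KRT18*, *KRT19*, *CD14* and *MKI67*, were not found by symbol. The members and lists were chosen with earlier results of these data known. The ratios, thinning and co-detection were tested on simulated data. Alternatives changed the cell filters, the scaling, the depth per cell, the CPM minimum, the fold limit and the clustering.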

Additional observations from a re-analysis of the deposited data

Results flagged for a closer look

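Barcodes outside the cell filter, 519 in the control and 611 in the TGF-β1 library with 3785520 and 4458807 UMIs, entered no comparison above. In them 3 of the 10 genes had a TGF-β1 level whose interval lay above that of the control, as did 15.3% of the 12116 genes whose mean reached 1 CPM in kept cells. *WNT5B* had 34.1 CPM (28.5 to 40.5) in control and 99.8 CPM (90.7 to 110) in TGF-β1 barcodes. *SFRP1* had 89.0 CPM (79.8 to 99.1) and 117 CPM (107 to 128), although its level was equal in kept cells. *NKD2* had 3.70 CPM (2.02 to 6.21) and 10.8 CPM (7.94 to 14.3). *DKK3*, with 488 and 588 UMIs, had 129 CPM (118 to 141) and 132 CPM (121 to 143). Its log2 ratio in these barcodes was 0.03 (−0.14 to 0.21), against 0.39 in kept cells. *DKK1* had 11 and 7 UMIs and *SFRP2* 4 and 3, too few to tell the libraries apart.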

How the results depend on the processing

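Of 100 alternative values of the 10 log2 ratios, 95 stayed within the counting interval, and the sign changed for *SFRP1* only. The exceptions were *DKK1* with cells thinned (2.03), *WNT5B* without cells above the 90th percentile of UMIs (1.54) and *SFRP1* with cells thinned, mean per-cell CPM or cluster shares standardised (−0.07 in each). *WNT5B*, *DKK1* and *NKD2* counted as more than 2-fold higher and *SFRP2* as lower until the minimum mean was set to 10 CPM, where fewer genes pass and the counts were 1 higher and 0 lower. With that minimum 2 further pathway genes were past 2-fold higher and 4 lower. Of all genes 176 were past 2-fold higher and 163 lower, instead of 418 and 419. With a limit of 1.5-fold, 7 further pathway genes were higher and 12 lower, and 926 and 1134 of all genes. With no minimum beyond 3 UMIs, 10 further pathway genes were higher and 10 lower, and 1105 and 1183 of all genes were higher and lower. The medians of the secretion genes, the TCF/LEF factors, the target genes and all genes lay near 0 and took either sign. Of the other list medians 2 changed sign. That of the R-spondin list went to −0.56 with a minimum of 10 CPM, where *ZNRF3* dropped out. That of the other antagonists went to 0.11 with no minimum, where other genes entered. The co-detection of *WNT2* with *DKK1* was 0.691 of expectation with cells thinned to 10000 UMIs, but this was 2 cells where 2.90 were expected, under the minimum of 10, and no change of direction can be read from it. The medians of observed over expected ranged up to 1.05 in control and 1.07 in TGF-β1 cells. *WNT5B*, *DKK1*, *DKK3*, *NKD2* and *SFRP2* had the library-wide direction in each cluster with a ratio at resolutions 0.3 and 0.8. At 0.8 *WNT2* and *WNT5A* had it in 9 of 12 clusters and *WNT2B* in 4 of 5, and *SFRP1* and *AXIN2* took both signs at either resolution. The list of other ligands had no gene left at 10 CPM and gave no value. Without integration the clusters split by library, and 1 cluster alone had at least 50 cells of each, in which *WNT2* (1.74), *SFRP1* (0.92) and *AXIN2* (0.55) differed most from their library-wide ratios.

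Counting intervals leave out the difference between mares, whose cells were pooled, and between library preparations, of which there was 1 per group. Sparse genes such as *WNT2B* and *DKK1* were found in so few cells that their values per cluster or per cell state rest on few UMIs. Shares of cells depend on depth, and 61 of 100 alternative shares moved, mostly with another depth or a minimum of 2 UMIs, while the differences in share of *WNT5B*, *DKK1*, *NKD2* and *SFRP2* kept their sign under all 5 alternatives each. Doublets were not removed, and RNA levels give no measure of secreted protein.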

Other observations

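Among the further pathway genes with a mean under 1 CPM, 40 in number, 7 were more than 2-fold higher and 3 more than 2-fold lower in the TGF-β1 library. Of the 34 with UMIs in both libraries and more than 3 in at least 1 of them this was 20.6% and 8.82%, against 13.7% and 14.8% of 4969 such genes in all, and *CER1* with 5 and 0 UMIs was not counted. The examples that follow were picked after their values were seen. *RSPO1*, an R-spondin like *RSPO3*, had 323 UMIs in control and 17 UMIs in TGF-β1 cells, a log2 ratio of −4.31 (−5.11 to −3.61), and was found in 2.82% of thinned control and 0.133% of thinned TGF-β1 cells. *DRAXIN*, which encodes a secreted protein that antagonises WNT signalling, had 65 and 211 UMIs, a log2 ratio of 1.64 (1.23 to 2.06). *WNT7B* had 44 and 116 UMIs, 1.34 (0.82 to 1.87). *WNT10B*, with 9.72 and 4.87 CPM, stood close to the 2-fold limit, and its interval of −1.10 to −0.89 held it. *WNT3A* and *WNT9B* had no UMI in the kept cells of either library.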
